A study of Mus musculus with 3 samples.

Results

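The 43 collagen and laminin genes detected in sorted cells of the medial prefrontal cortex were followed across neurons and the endothelial, mural and astroglial cells sorted with them. Members were picked by a rule on the symbol alone among the 14933 genes of the deposited table of 17396 filtered cells. The rule uses no levels or cell classes, but earlier results of these data were known when it was set. They are 34 collagen genes (*Col* with a chain number) and 9 laminin genes (*Lama*, *Lamb* or *Lamc* with a number). The annotation of the deposited matrices holds 55 such symbols, and the other 12 have no row in the filtered table.

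The study deleted *Tbr1*, a transcription factor of deep-layer cortical neurons, in layer 5 and profiled single cells at P5 (postnatal day 5). There was 1 library from each of 3 genotypes on the C57Bl6 strain, Rbp4cre::tdTomato (wild-type), Tbr1f/+::Rbp4cre::tdTomato (heterozygous) and Tbr1f/f::Rbp4cre::tdTomato (homozygous). All 3 carried the *Rbp4-cre* transgene, which is active in layer 5 projection neurons, and a tdTomato reporter that Cre switches on, and tdTomato-positive cells were collected by flow cytometry after papain dissociation. The floxed *Tbr1* allele loses part of the gene only in cells with Cre, and whether Cre acted in the endothelial, mural and glial cells collected with the neurons was not tested. The number of animals in a library is not given in the sources used here, so p-values below rest on these 3 libraries and not on animals. The spread they use was estimated with information shared across genes and cell classes, so a gene with UMIs in 1 library can still pass. With 1 library for each genotype, no test of genotype is possible.

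Basement membranes are thin sheets of matrix around vessels and under the pia, built from a laminin network and a type IV collagen network that nidogens and perlecan join. A laminin is a trimer of an alpha, a beta and a gamma chain, and type IV collagen is a trimer of chains encoded by *Col4a1* to *Col4a6*. In brain vessels, endothelial cells, the mural cells on them (pericytes and smooth muscle) and the astrocyte end-feet around them share such a sheet, while fibrillar collagens such as types I and III are textbook products of fibroblasts in the meninges and around larger vessels.

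The authors list neurons in a table of their own, in which cells they kept for testing differential expression are here called typical neuronal cells (1778, 5357 and 3935 in the wild-type, heterozygous and homozygous libraries, the order used throughout) and the others atypical (304, 107 and 462). The remaining 2873, 1398 and 1182 cells, here called outside cells, were 57.98%, 20.37% and 21.19% of each library, so the wild-type library stood apart in its share of them. They were split by 3 or more summed UMIs (unique molecular identifiers, each counting 1 RNA molecule) of *Cldn5*, *Flt1* and *Pecam1* (endothelial gate), of *Rgs5*, *Vtn* and *Kcnj8* (mural gate), or of *Slc1a3*, *Aqp4*, *Mfge8* and *Slc1a2* (astroglial gate). Only the endothelial gate was passed by 241, 75 and 127 cells, only the mural gate by 84, 26 and 49, only the astroglial gate by 759, 328 and 215, more than 1 gate by 159, 54 and 43, and none by 1630, 915 and 748. Levels are UMIs per 1000000 UMIs (CPM) of the summed cells of a class in 1 library. The tags come from the 3′ ends of transcripts and do not grow with gene length.

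The gates were checked on marker genes that they do not use. The 10 endothelial markers (*Cdh5*, *Esam* and others) summed to 6993 to 8973 CPM in endothelial-gated cells and 108 to 201 CPM in cells of no gate, and the 10 mural markers (*Pdgfrb*, *Abcc9* and others) to 3420 to 5705 CPM in mural-gated cells and 20.8 to 53.5 CPM in cells of no gate. Endothelial markers also stood at 744 to 1279 CPM in mural-gated cells, where *Tek* was at 0, and mural markers at 45.6 to 115 CPM in endothelial-gated cells. Their part in the members that rose in both vascular classes was not tested. In the wild-type library markers of other cells also stood apart. Microglial markers summed to 981, 97.0 and 32.8 CPM in mural-gated cells, and inhibitory neuron markers to 749, 88.2 and 68.3 CPM in endothelial-gated cells. The part of such cells in the class calls was not tested. The 9 astroglial markers reached 8222 to 12226 CPM in astroglial-gated cells, 2742 to 3851 CPM in cells of no gate and 5811 to 6707 CPM in typical neuronal cells. Of the cells in the neuronal table, 874 passed the astroglial gate, 5 the endothelial gate and 3 the mural gate, so the astroglial gate separates less. Fibroblast markers (*Dcn*, *Lum* and 6 others) summed to 1707 to 3803 CPM in mural-gated cells, 296 to 490.2 CPM in endothelial-gated cells, where *Lum* and *Slc6a13* were at 0, and 186 to 240.5 CPM in cells of no gate. They reached 583 to 1075 CPM in astroglial-gated cells, where the listed *Igfbp2* alone stood at 577 to 1069 CPM. Haemoglobin genes summed to 14209 to 55227 CPM in endothelial-gated cells but 58.2 to 195 CPM in mural-gated cells. They stood at 21380 to 34856 CPM in cells of more than 1 gate and 754 to 9404 CPM in cells of no gate. Their part in the members' levels, and in the differences between the vascular classes, was not tested. Median UMIs per cell were 2785, 2541 and 2223 in endothelial-gated, 2324, 1711 and 1657 in mural-gated, and 1901, 1743 and 1375 in typical neuronal cells. Of all cell barcodes, 139 occurred in 2 libraries and 1 in all 3. *Tbr1* itself stood at 27.5, 30.7 and 22.4 CPM in typical neuronal cells, which checks no label, since a 3′ tag can lie outside the deleted exons.

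The members gave 9922 UMIs in all filtered cells, and 85.87% of them lay in outside cells, which were 31.35% of the cells. The 858 cells past the endothelial or the mural gate, 4.93% of all cells, held 58.49% of the members' UMIs. Summed over the 43 genes, the level was 3074, 2212 and 3158 CPM in mural-gated cells and 1120, 1076 and 859.7 CPM in endothelial-gated cells. In typical neuronal cells the sum was 87.5, 57.7 and 57.8 CPM. It was 253, 116 and 183 CPM in astroglial-gated cells and 250.4, 129 and 264 CPM in cells of no gate, while droplets of 100 to 500 UMIs, taken as empty, gave 147, 126 and 110 CPM. Mural-gated cells were therefore above endothelial-gated cells in every library, both were above astroglial-gated cells and cells of no gate in every library, and the ranges of the latter 2 classes overlapped. Cells of more than 1 gate stood at 3504, 2504 and 2703 CPM. Of the members' UMIs they held 28.7% ± 8.22 (SD, n = 3 libraries), endothelial-gated cells 14.5% ± 1.72, mural-gated cells 10.9% ± 4.67 and typical neuronal cells 18.1% ± 12.8. By mean CPM, 17 members were highest in mural-gated cells, 17 in cells of more than 1 gate, 6 in cells of no gate, 2 in astroglial-gated cells and 1 in atypical neuronal cells, and no member was highest in typical neuronal cells.

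**Figure D1:**
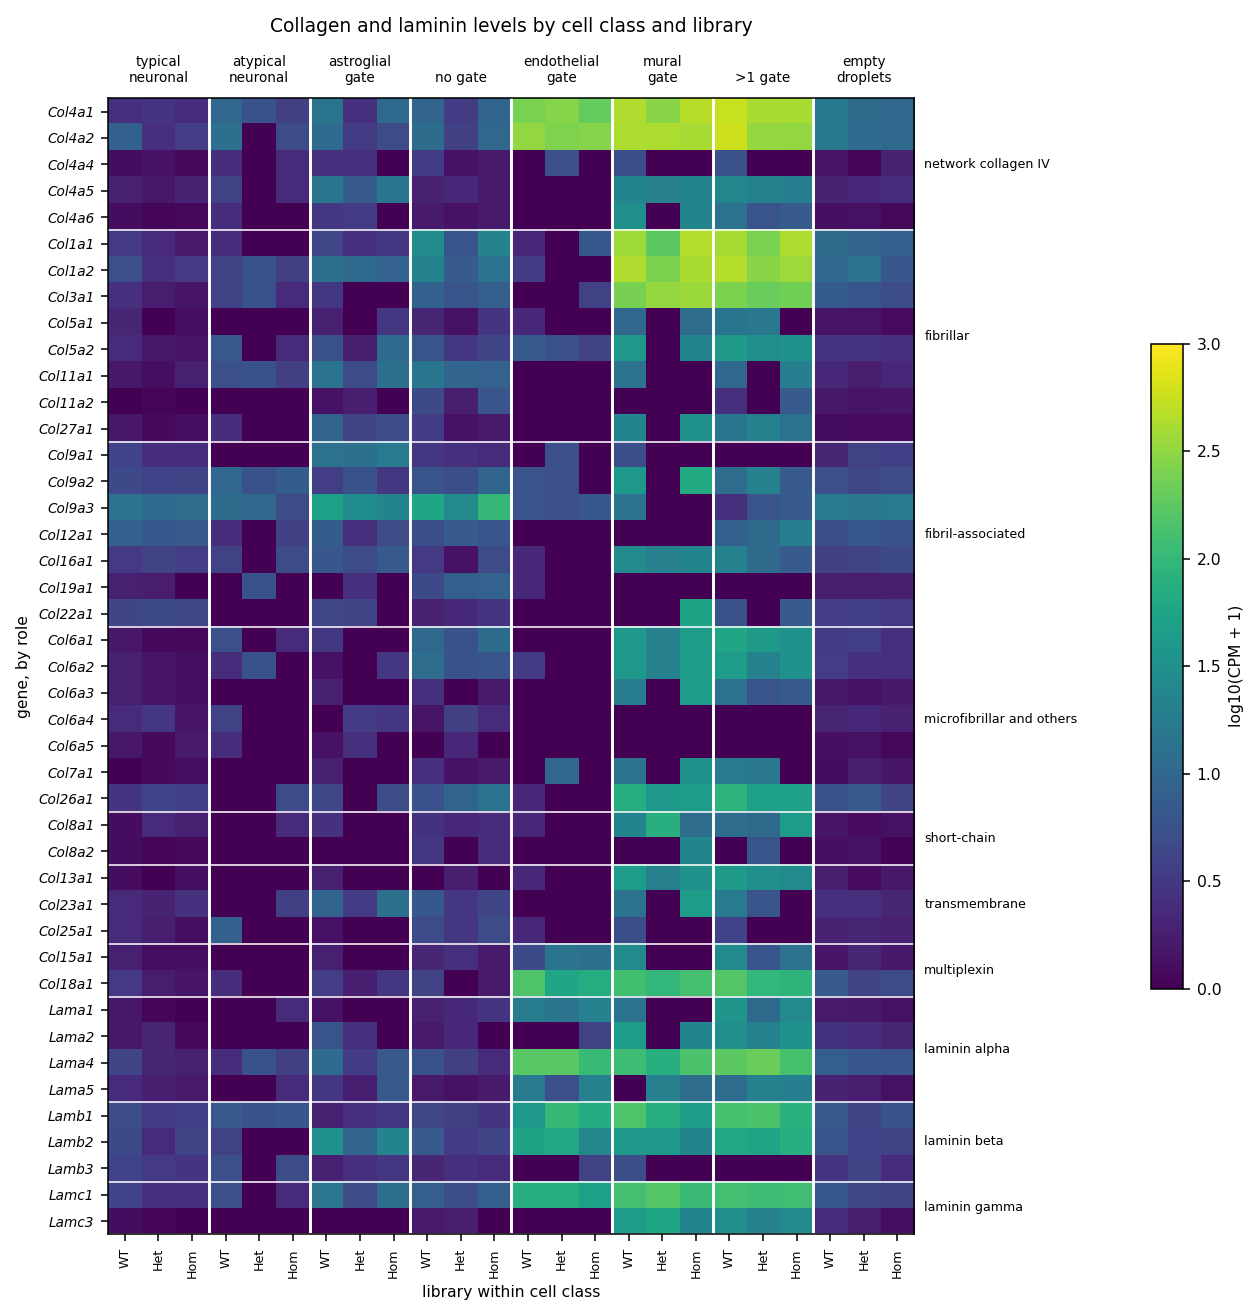
Colour gives log10(CPM + 1) of each member (rows, grouped by role) in each library (wild-type WT, heterozygous Het, homozygous Hom) of each cell class and of empty droplets (columns), from dark purple at 0 to yellow at the highest levels. *Col4a1* and *Col4a2* are bright in the endothelial, mural and more-than-1-gate columns, *Col1a1*, *Col1a2* and *Col3a1* in the mural and more-than-1-gate columns but not the endothelial one, and the typical neuronal columns are dark throughout.

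Classes of outside cells were compared over the 3 libraries with edgeR's quasi-likelihood test and Benjamini-Hochberg adjustment over 14470 genes. The adjusted p had to be under 0.05, and 42 of the 43 members had enough UMIs to be tested (*Col6a5* did not). SE here is the size of the log2 fold change divided by the square root of the F value of the test. It was not estimated separately and can be too small where a class has few UMIs. Against cells of no gate, 10 members were higher in endothelial-gated cells (15.8% of all genes tested) and 11 lower (19.1% of all genes). In mural-gated cells 27 members were higher (4.91% of all genes) and 1 lower (4.81% of all genes). In astroglial-gated cells 4 were higher (9.88% of all genes) and 7 lower (9.16% of all genes). The share of members that were higher in mural-gated cells was many times the background, while the shares in the other directions lay nearer to it. The median log2 fold change over the members tested was 2.99 in mural-gated cells, where that of all genes was -0.37. In endothelial-gated cells it was -1.77, where that of all genes was -0.18, and in astroglial-gated cells it was -0.26 against -0.08. The endothelial median rests in part on 13 members without a UMI in a class, whose fitted size is not determined. For those with few UMIs in cells of no gate a floor of 3 UMIs gives no bound, so no direction is read from that median. These 3 comparisons share the sums of the cells of no gate. Without the wild-type library, which holds most of the gated cells, the mural-gated count of members that were higher fell from 27 to 11, and the counts of members that were lower fell from 11 to 4 in endothelial-gated and from 7 to 4 in astroglial-gated cells. Without the homozygous library 7 members were lower in endothelial-gated cells. With cells thinned to 1000 UMIs, 13 members were higher in mural-gated and 3 lower in endothelial-gated cells.

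**Figure D2:**
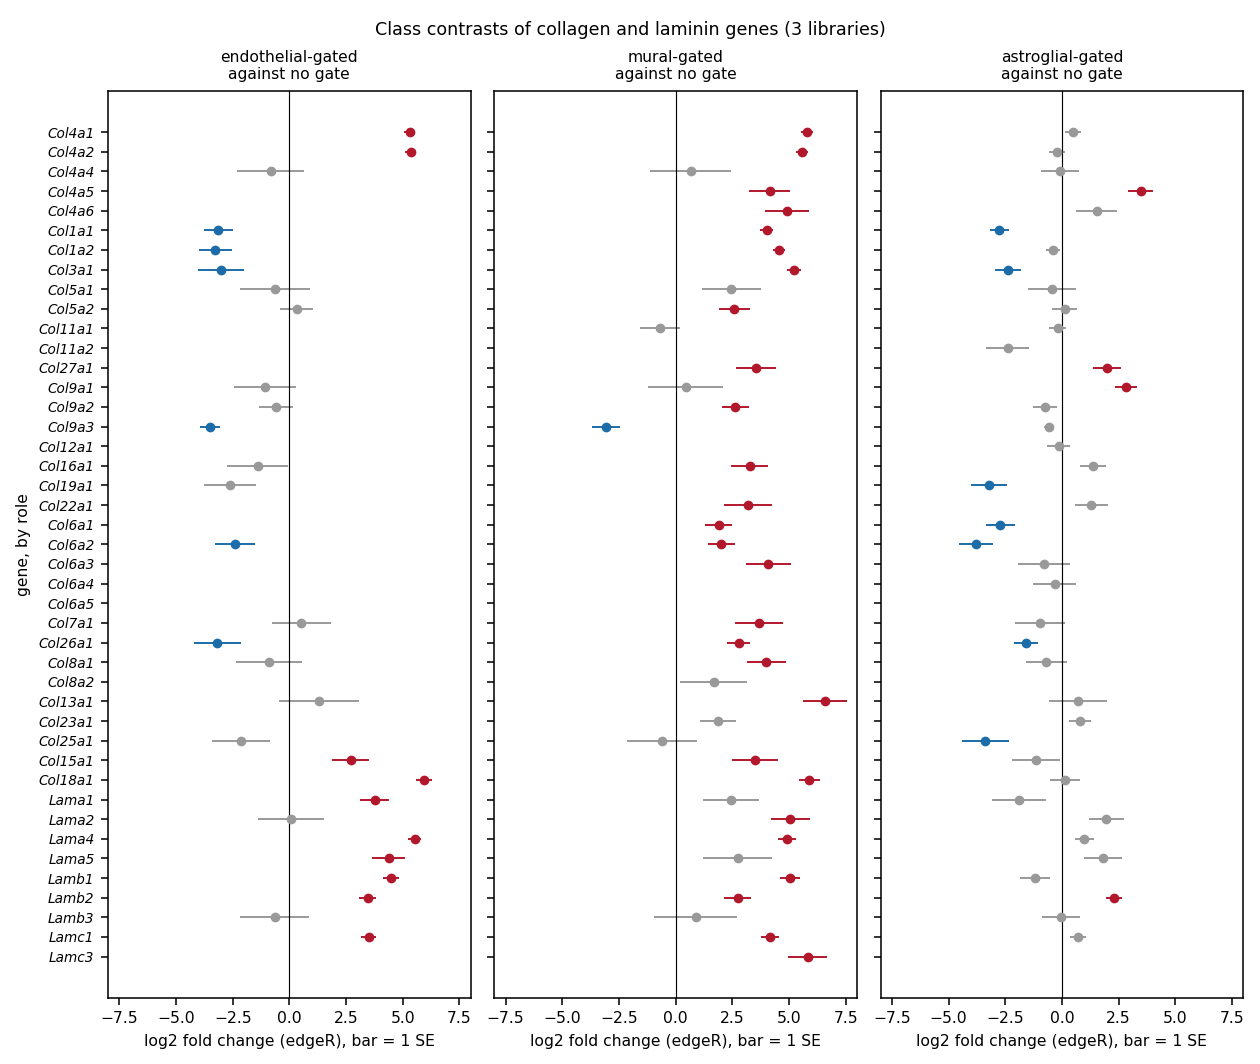
Fitted log2 fold change (x axis) of each member in endothelial-gated, mural-gated and astroglial-gated cells against cells of no gate, 1 panel each. Bars give 1 SE, derived from the F value of the test. Members that passed the test at an adjusted p under 0.05 are red where higher and blue where lower, and the others are grey. Members without a UMI in a class and *Col6a5* are not drawn, *Col4a1*, *Col4a2*, *Col18a1* and *Lama4* lie far right of 0 in both vascular panels, and *Col1a1*, *Col1a2* and *Col3a1* lie right of 0 in the mural and left of it in the endothelial panel.

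*Col4a1* and *Col4a2*, which encode the chains of the common type IV network, gave 1150 and 1246 UMIs. They lie head to head on chromosome 8 (*Col4a1* at chr8:11198423-11312826 on the minus strand, *Col4a2* at chr8:11312805-11449287 on the plus strand, GRCm38, GENCODE), and their annotated ends overlap by 22 bases. *Col4a1* stood at 248, 287 and 194 CPM in endothelial-gated cells and at 432, 291 and 469.9 CPM in mural-gated cells. In cells of no gate it was at 8.40, 2.35 and 8.41 CPM and in typical neuronal cells at 1.63, 1.92 and 1.48 CPM. *Col4a2* stood at 324, 265 and 273 CPM in endothelial-gated and 424, 427 and 404 CPM in mural-gated cells, against 10.4, 2.74 and 9.06 CPM in cells of no gate. Every vascular value of both genes was above every value in astroglial-gated cells, cells of no gate and typical neuronal cells. The log2 fold change against cells of no gate was 5.31 (SE 0.24, adjusted p = 9.56e-102) for *Col4a1* and 5.35 (SE 0.24, adjusted p = 4.15e-111) for *Col4a2* in endothelial-gated cells, and 5.80 (SE 0.27) and 5.58 (SE 0.27) in mural-gated cells. Between the vascular classes neither gene passed the test, with a log2 difference (endothelial minus mural) of -0.49 (SE 0.22, adjusted p = 0.146) for *Col4a1* and -0.23 (SE 0.22, adjusted p = 0.589) for *Col4a2*. A UMI of either gene was seen in 68.1%, 69.3% and 58.3% of endothelial-gated cells, 61.9%, 53.85% and 57.1% of mural-gated cells and 1.86%, 0.672% and 0.61% of typical neuronal cells. With every cell thinned to 1000 UMIs, the endothelial shares were 36.1%, 38.7% and 33.9% and the mural shares 44.0%, 42.3% and 46.9%. The order of the vascular classes thus turned at equal depth in every library, but their unthinned 95% intervals overlapped in each. In the homozygous library these were 49.2 to 67.0 (endothelial) and 42.2 to 71.2 (mural). The thinned shares have no interval, and the heterozygous mural share comes from 26 cells. The thinned neuronal shares were 0.844%, 0.411% and 0.457%. *Col4a1* gave 44.4% (95% exact binomial interval 40.8 to 48.0) of the UMIs of the pair in endothelial-gated cells and 50.2% (44.5 to 55.8) in mural-gated cells, and 37.2% (27.5 to 47.8) in typical neuronal cells, where the 2 genes had 94 UMIs. These shares are summed over libraries, and the heterozygous library had the opposite order of the vascular classes, at 52.0% (42.9 to 61.0) in endothelial-gated and 40.5% (24.8 to 57.9) in mural-gated cells. In typical neuronal cells the share was 17.6% (6.76 to 34.5), 55.6% (38.1 to 72.1) and 37.5% (18.8 to 59.4) by library. All such intervals cover counting error only.

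*Col4a5* and *Col4a6* encode minor type IV chains and also lie head to head, on chromosome X, with 1308 bases between them. *Col4a5* stood at 21.6, 19.4 and 21.9 CPM in mural-gated cells and 13.8, 6.21 and 13.6 CPM in astroglial-gated cells, had no UMI in endothelial-gated cells, and stood at 0.884, 1.18 and 0.647 CPM in cells of no gate. The mural and astroglial values were all above those of no gate. Its log2 fold change was 4.15 (SE 0.91, adjusted p = 0.000126) in mural-gated and 3.47 (SE 0.55, adjusted p = 8.3e-09) in astroglial-gated cells. *Col4a6* stood at 30.3, 0 and 21.9 CPM in mural-gated cells, overlapping the 0.392 to 0.663 CPM of cells of no gate, and passed the test at a log2 fold change of 4.92 (SE 0.98). *Col4a4*, a chain known from kidney filters, had 32 UMIs in all and passed no test.

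Among laminin alpha chains, *Lama4*, the chain typical of vascular endothelium, stood at 164, 168 and 108 CPM in endothelial-gated and 117, 77.6 and 142 CPM in mural-gated cells, against 4.64, 2.74 and 1.29 CPM in cells of no gate. Both vascular classes were above no gate in every library and overlapped each other. The log2 fold changes were 5.52 (SE 0.30) in endothelial-gated and 4.91 (SE 0.42) in mural-gated cells. *Lama1*, a chain of early and pial basement membranes, stood at 17.1, 13.2 and 19.9 CPM in endothelial-gated cells, and *Lama5*, a chain of mature vessels, at 15.9, 4.41 and 19.9 CPM, against at most 1.94 and 0.663 CPM in cells of no gate. They rose by log2 fold changes of 3.77 (SE 0.64) and 4.39 (SE 0.72), and neither passed the test in mural-gated cells. *Lama2*, a chain of muscle and of perivascular matrix, had 43.2, 0 and 21.9 CPM in mural-gated cells and 0, 0 and 2.85 CPM in endothelial-gated cells, and passed the test in mural-gated cells against both cells of no gate (log2 5.07, SE 0.87) and endothelial-gated cells.

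Of the beta chains, *Lamb1* stood at 39.1, 101.5 and 68.3 CPM in endothelial-gated and 147, 77.6 and 43.7 CPM in mural-gated cells, against 1.94 to 3.32 CPM in cells of no gate. *Lamb2*, the beta chain of synaptic and vascular laminins, stood at 53.8, 61.8 and 22.8 CPM in endothelial-gated, 38.9, 38.8 and 21.9 CPM in mural-gated and 31.9, 8.54 and 21.4 CPM in astroglial-gated cells, against 2.35 to 6.19 CPM. *Lamb2* was the laminin that rose in all 3 gated classes, with log2 fold changes of 3.46 (SE 0.37), 2.73 (SE 0.61) and 2.297 (SE 0.34). *Lamc1*, the gamma chain found in most laminins, stood at 77.0, 75.0 and 48.4 CPM in endothelial-gated, 130.0, 155 and 109 CPM in mural-gated and 7.07, 4.31 and 7.12 CPM in cells of no gate. Its log2 fold changes were 3.50 (SE 0.32) and 4.15 (SE 0.39) in the vascular classes. *Lamc3*, another gamma chain, had no UMI in endothelial-gated cells and 43.2, 58.2 and 21.9 CPM in mural-gated cells, where it rose (log2 5.83, SE 0.86). In adjusted p these laminin calls of *Lamb1*, *Lamb2* and *Lamc1* ran from 4.58e-32 to 0.000171 in the vascular classes. *Lamb3*, a chain of epithelial laminins, had 73.91% of its 69 UMIs in cells of the neuronal table and passed no test.

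*Col18a1* and *Col15a1* encode the multiplexins, basement membrane collagens with sugar side chains, the first of which is the precursor of endostatin. *Col18a1* stood at 147, 57.3 and 71.2 CPM in endothelial-gated and 121, 97.0 and 131 CPM in mural-gated cells, against 3.09, 0 and 0.647 CPM in cells of no gate. Its log2 fold changes were 5.95 (SE 0.36) and 5.90 (SE 0.46), and its difference between the vascular classes was 0.05 (adjusted p = 0.984). *Col15a1* stood at 3.67, 13.2 and 11.4 CPM in endothelial-gated cells (log2 2.72, SE 0.82, adjusted p = 0.00374) and had its 6 mural UMIs in the wild-type library alone, where it reached 25.9 CPM. Without the wild-type library no mural UMI of *Col15a1* was left, which gives no direction. Its endothelial call was lost without the homozygous library (log2 2.24, adjusted p = 0.105), without the 5% of cells with the most UMIs (1.91, adjusted p = 0.213) and with cells thinned to 1000 UMIs, where the sign turned (-0.15, adjusted p = 0.967).

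Stretches of the promoters of 4 members that rose in mural-gated cells, 2 fibrillar genes and 2 basement membrane genes, are shown from RefSeq (GRCm38.p6) so that their letters can be compared. Each is printed on the strand of the gene and outside annotated UTRs, and that of *Col1a2* lies within the longer annotated gene (chr6:4504814-4541544). Capitals mark the CCAAT box (ATTGG when it lies on the other strand), the TATAAA box (TTTATA when it does) and the GGGCGG box (CCGCCC when it does), and no marked motifs overlap. *Col1a2* is at chr6:4505370-4505492 on the plus strand and *Col3a1* at chr1:45311288-45311537 on the plus strand. *Col18a1* is at chr10:77166549-77166780 on the minus strand and *Lamb1* at chr12:31265043-31265233 on the plus strand.
Col1a2: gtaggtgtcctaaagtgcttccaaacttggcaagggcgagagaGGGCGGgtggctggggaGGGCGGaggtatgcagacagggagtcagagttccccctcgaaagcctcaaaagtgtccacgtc
Col3a1: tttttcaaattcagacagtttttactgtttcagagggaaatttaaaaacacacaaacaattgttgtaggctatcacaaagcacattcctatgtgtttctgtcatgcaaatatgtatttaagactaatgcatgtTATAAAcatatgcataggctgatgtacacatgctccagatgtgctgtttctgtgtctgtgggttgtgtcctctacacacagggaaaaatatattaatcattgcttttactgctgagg
Col18a1: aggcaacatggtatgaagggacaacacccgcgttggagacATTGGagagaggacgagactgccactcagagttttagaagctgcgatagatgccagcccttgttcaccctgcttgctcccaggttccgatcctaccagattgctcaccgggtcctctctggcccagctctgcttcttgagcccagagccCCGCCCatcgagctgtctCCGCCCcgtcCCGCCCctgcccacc
Lamb1: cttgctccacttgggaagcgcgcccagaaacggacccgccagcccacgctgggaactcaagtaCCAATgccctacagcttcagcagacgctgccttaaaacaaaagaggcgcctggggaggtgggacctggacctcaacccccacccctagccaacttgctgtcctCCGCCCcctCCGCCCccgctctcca
As printed, *Col18a1* holds 3 copies of GGGCGG and 1 CCAAT, *Lamb1* 2 and 1, *Col1a2* 2 copies of GGGCGG, and *Col3a1* 1 TATAAA. The 250 bases before the start of *Col1a2* also hold 1 CCAAT, outside the stretch printed. A second *Col18a1* promoter window (chr10:77113656-77113955) is not shown and holds none of these motifs in the 250 bases before its start. A promoter entry existed for 33 members (37 windows). In the 250 bases before the start, GGGCGG was found in 59.46% of the members' windows and 32.74% of all 32851 promoters, CCAAT in 32.43% and 33.85%, and TATAAA in 8.11% and 12.37%. These matches describe the letters of these windows and nothing more.

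The fibrillar collagens of types I and III separated endothelial-gated from mural-gated cells. The mural-gated levels include 34 cells with 3 or more UMIs of fibroblast genes, and such cells had far higher levels of these collagens (described below). *Col1a1*, a chain of type I collagen (chr11:94936224-94953042), stood at 372, 175 and 448 CPM in mural-gated cells and at 1.22, 0 and 5.69 CPM in endothelial-gated cells. *Col1a2*, the other type I chain, stood at 437, 252 and 415 CPM and at 2.44, 0 and 0 CPM. *Col3a1*, which makes type III collagen, stood at 242, 329.8 and 349.7 CPM and at 0, 0 and 2.85 CPM. Every mural value of these genes was above every endothelial value and above every value in cells of no gate, which ran from 5.09 to 27.2 CPM. Endothelial-gated cells were below mural-gated cells by log2 differences of -7.15 (SE 0.48) for *Col1a1*, -7.85 (SE 0.50) for *Col1a2* and -8.23 (SE 0.60) for *Col3a1*. Endothelial-gated cells held only 3, 2 and 1 UMIs of these genes, so the sizes of these differences are poorly determined. They were also below cells of no gate, by -3.13 (SE 0.64), -3.28 (SE 0.73) and -3.02 (SE 1.01), with ranges that overlapped for *Col1a1*. Without cells with 3 or more UMIs of fibroblast genes (described below), *Col1a1* (-1.28, adjusted p = 0.238) and *Col3a1* (-1.96, adjusted p = 0.209) no longer passed against cells of no gate, nor did *Col6a2*, while *Col1a2* did (-2.22, adjusted p = 0.0312). A UMI of any of the 3 genes was seen in 55.95%, 50% and 61.2% of mural-gated cells, in 1.25%, 0% and 2.36% of endothelial-gated cells and in 1.69%, 0.653% and 0.508% of typical neuronal cells. At 1000 UMIs per cell the shares were 38.1%, 42.3% and 38.8% (mural), 0.415%, 0% and 0.787% (endothelial) and 0.956%, 0.224% and 0.407% (typical neuronal).

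Between endothelial-gated and mural-gated cells 19 members were lower in endothelial-gated cells (5.10% of all genes tested) and 0 higher (7.43% of all genes). By edgeR, 1 member was higher at an unadjusted p under 0.05 (*Lama4*, log2 0.61, adjusted p = 0.201). By DESeq2, 0 were higher at an adjusted p under 0.05. Of the 19, 5 are fibrillar (also *Col5a2* and *Col27a1*), 4 form the group with type VI (*Col6a1*, *Col6a2*, *Col6a3* and *Col26a1*), 3 are fibril-associated (*Col9a2*, *Col16a1*, *Col22a1*), and the others are *Col4a5*, *Col4a6*, *Col8a1*, *Col13a1*, *Col23a1*, *Lama2* and *Lamc3*. Of these, 8 had no UMI in any endothelial-gated cell, among them *Lamc3*, at least 18.6-fold lower over a floor of 3 UMIs in the class, *Col6a1*, at least 17.4-fold lower, and *Col4a6*, at least 11.2-fold lower. The chains that did not pass the test were *Col4a1*, *Col4a2*, *Col18a1*, *Lama4*, *Lamb1* (-0.58), *Lamb2* (0.72), *Lamc1* (-0.66) and *Col15a1* (-0.78) among those that rose in both classes, with adjusted p from 0.146 to 0.984. All 5 mural UMIs of *Col22a1*, a collagen of tissue junctions, lay in the homozygous library (54.6 CPM), so without it no mural UMI was left and no direction can be given. Without the wild-type library 6 members were lower.

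Markers of fibroblasts moved with the mural gate, so mural-gated cells that passed no endothelial gate were split by their summed UMIs of *Dcn*, *Lum* and *Slc6a13*, a split chosen after the values were seen. With 3 or more such UMIs there were 88 cells (34 of the mural gate alone and 54 that also passed the astroglial gate), with 1 or 2 there were 18, and with none there were 172. In the 88 cells *Col1a1* stood at 1582, 1502 and 1357 CPM, and in the 172 cells at 25.6, 0 and 269.7 CPM. *Col1a2* stood at 1615, 1528 and 1447 CPM against 165, 149 and 119.8 CPM, and *Col3a1* at 853.5, 1010.2 and 1013 CPM against 128, 216 and 89.9 CPM. *Col4a1* went the other way in every library, with 506, 337 and 308 CPM against 641, 514 and 629 CPM, as did *Lama4*, with 43.4, 104 and 54.3 CPM against 154, 135 and 119.8 CPM. *Lamc1* overlapped, with 135, 155 and 145 CPM against 139, 122 and 109.9 CPM. *Col8a1*, a short-chain collagen of vessel walls, stood at 40.3, 81.1 and 79.9 CPM in the 172 cells and had 1 library with any UMI (4.82 CPM) among the 88. The smooth muscle marker *Acta2*, which the gate does not use, stood at 1581 CPM in the 172 cells (libraries summed) and at 0 CPM in the 88. Of the genes of the mural gate, which selected these cells, *Rgs5* stood at 5257 CPM in the 172 cells and 9.96 CPM in the 88, and *Vtn* at 4952 CPM in the 88.

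**Figure D3:**
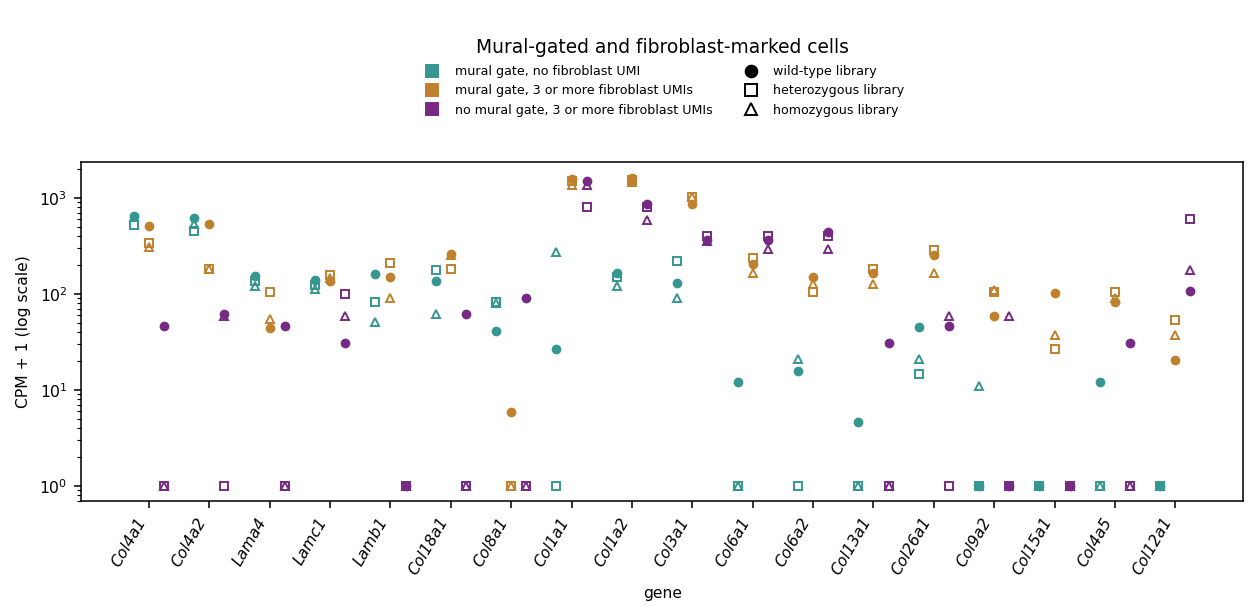
CPM + 1 (logarithmic y axis) of 18 members (x axis) by library (filled circles wild-type, open squares heterozygous, open triangles homozygous) in mural-gated cells without UMIs of *Dcn*, *Lum* and *Slc6a13* (green), in mural-gated cells with 3 or more (brown) and in other cells with 3 or more (purple). *Col1a1*, *Col1a2* and *Col3a1* lie higher in the brown than the green points in every library, *Col4a1*, *Col4a2* and *Lama4* lie lower, and points at the bottom had no UMI.

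Several smaller members stood higher in the 88 cells with fibroblast UMIs than in the 172 without in every library. *Col13a1*, a transmembrane collagen, stood there at 164, 181 and 127 CPM against 3.66, 0 and 0 CPM, *Col26a1* at 250.7, 285 and 163 CPM against 43.9, 13.5 and 19.97 CPM, and *Col9a2*, a chain of fibril-associated type IX, at 57.9, 104 and 109 CPM against 0, 0 and 9.99 CPM. *Col4a5* (82.0, 104 and 90.5 CPM) and *Col15a1* (101, 25.9 and 36.2 CPM) were likewise above the 172 cells in every library. A further 24 cells with 3 or more fibroblast UMIs passed no mural gate and had another mixture: the type VI microfibril genes *Col6a1* at 361, 398 and 292 CPM and *Col6a2* at 436, 398 and 292 CPM, *Col12a1* at 105, 596.5 and 175 CPM, and *Col4a1* at 45.1, 0 and 0 CPM. The 112 cells of both kinds, 0.644% of all filtered cells, held 26.1% of the members' UMIs, 73.66% of those of *Col1a1*, *Col1a2* and *Col3a1*, and 11.23% of those of *Col4a1* and *Col4a2*. They held 84.75% of the UMIs of *Col13a1* but 42.86% of those of *Col15a1*, 33.63% of *Col26a1*, 26.92% of *Col4a5* and 13.77% of *Col9a2*. Without them 14 of 39 members tested were higher in mural-gated cells, among them *Col1a1* (log2 4.34), *Col1a2* (4.21), *Col3a1* (5.20), *Col4a1* (5.85), *Col8a1*, *Lama4* and *Lamc3*, while *Col13a1*, *Col15a1*, *Col26a1*, *Col4a5*, *Col4a6* and 8 others no longer passed. As given above, *Col1a1* had no UMI in the 172 cells of the heterozygous library and was highest in those of the homozygous library. Endothelial-gated cells were then below mural-gated cells in 8 members instead of 19.

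In astroglial-gated cells the members that rose were *Col4a5*, *Lamb2*, *Col9a1* and *Col27a1*. These were 4 of the 42 members tested, a share close to that of all genes (9.88%). *Col9a1*, a chain of type IX collagen, stood at 12.2, 11.6 and 15.6 CPM against 1.99, 1.57 and 1.29 CPM in cells of no gate, with ranges far apart (log2 2.81, SE 0.48, adjusted p = 1.22e-07). *Col27a1*, a fibrillar collagen, stood at 8.38, 3.11 and 3.89 CPM against 2.43, 0.392 and 0.647 CPM (log2 1.99, SE 0.60). The 7 members that were lower were *Col1a1* (-2.76), *Col3a1* (-2.37), *Col6a1* (-2.71), *Col6a2* (-3.79), *Col19a1* (-3.21), *Col25a1* (-3.39) and *Col26a1* (-1.58). Without the 112 cells with fibroblast UMIs, *Col1a1* and *Col3a1* no longer passed, and none of the 7 passed under every alternative run. DESeq2 called 4 members lower, as did the fit without the 5% of cells with the most UMIs, and thinning to 1000 UMIs left 1. The excitatory neuron markers ranged from 586 to 2468 CPM in astroglial-gated cells. Of the astroglial-gated cells, 35.94% had 3 or more summed UMIs of *Neurod6*, *Neurod2*, *Slc17a7* and *Nrgn*. A further list, *Pdgfra*, *Olig1*, *Olig2* and *Sox10* of the oligodendrocyte lineage, was passed in the same way by 19.66%. The part of such cells in these values was not tested.

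The member with the most UMIs in cells of no gate was *Col9a3*, the remaining type IX chain (chr2:180597790-180622189), with 881 UMIs in all cells. It stood at 56.8, 26.3 and 97.7 CPM in cells of no gate, 48.6, 27.9 and 21.4 CPM in astroglial-gated cells and 12.8, 10.1 and 10.9 CPM in typical neuronal cells. In the vascular classes it stood at 4.89, 4.41 and 5.69 CPM (endothelial) and 13.0, 0 and 0 CPM (mural), below cells of no gate in every library, with log2 fold changes of -3.50 (SE 0.43) and -3.07 (SE 0.62). Cells of no gate were split by marker lists, with cells past several lists set apart. Of these cells, 277 had 3 or more summed UMIs of the oligodendrocyte-lineage genes *Pdgfra*, *Olig1*, *Olig2* and *Sox10*. The 210 of them past no other list (170, 8 and 32 by library) had *Col9a3* at 278, 763 and 994 CPM. Those cells are 1.207% of all filtered cells and held 33.03% of its UMIs. In the 872 cells of no gate past the excitatory list alone (1125 passed it) *Col9a3* was at 20.9 CPM, libraries summed. In the 429 past the inhibitory list alone (503 passed it) it was at 12.5 CPM. *Col11a1* and *Col11a2*, chains of fibrillar type XI, were at 22.8 and 15.7 CPM in the oligodendrocyte-lineage cells. In the 16 cells of no gate with 3 or more UMIs of *Dcn*, *Lum* and *Slc6a13* and of no other list, *Col11a1* was higher, at 124 CPM (56.8 to 236, from 9 UMIs), and *Col11a2* had no UMI. Both had no UMI in endothelial-gated cells, which made them at least 5.13-fold and 1.46-fold lower there than in cells of no gate. *Col19a1*, a fibril-associated collagen, was at 10.9 CPM (5.98 to 18.4) in the inhibitory cells and 7.78 CPM (4.68 to 12.1) in the 1156 cells past none of the marker lists. *Col25a1*, a transmembrane collagen, was at 6.25 CPM (2.70 to 12.3) and 5.32 CPM (2.83 to 9.10), and for both genes the intervals of the 2 sets of cells overlapped.

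Typical neuronal cells had member levels near or under those of empty droplets, which carry free RNA. The neuronal table came from clusters of these cells over all genes, so neurons against other classes are described with no test. By exact 95% intervals of the ratio in a library, 10, 14 and 12 members were below empty droplets, 2, 1 and 0 above, and 31, 28 and 31 neither. In all 3 libraries *Col1a1*, *Col1a2*, *Col3a1*, *Col4a1*, *Col4a2*, *Col6a1*, *Col18a1* and *Lama4* were below and no member was above. *Col4a1* was at 15.2, 9.98 and 8.76 CPM in empty droplets and *Col1a1* at 9.88, 7.98 and 7.23 CPM, against 2.18, 1.25 and 0.658 CPM for *Col1a1* in typical neuronal cells. The members with the largest neuronal part were *Lamb3*, *Col22a1* (69.61% of 102 UMIs), *Col6a4* (67.39% of 46) and *Col12a1* (63.13% of 198), where cells of the neuronal table were 68.65% of the cells and gave 58.3% of all UMIs. *Col12a1*, a collagen on fibril surfaces, stood at 7.36, 5.66 and 5.93 CPM in typical neuronal cells against 4.27, 5.64 and 4.53 CPM in empty droplets, and *Col22a1* at 3.27, 3.65 and 3.46 CPM against 2.54, 2.58 and 2.19 CPM. The interval was above empty droplets in the wild-type library for *Col12a1* and *Col9a1* and in the heterozygous library for *Col8a1*, and in no other case.

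**Figure D4:**
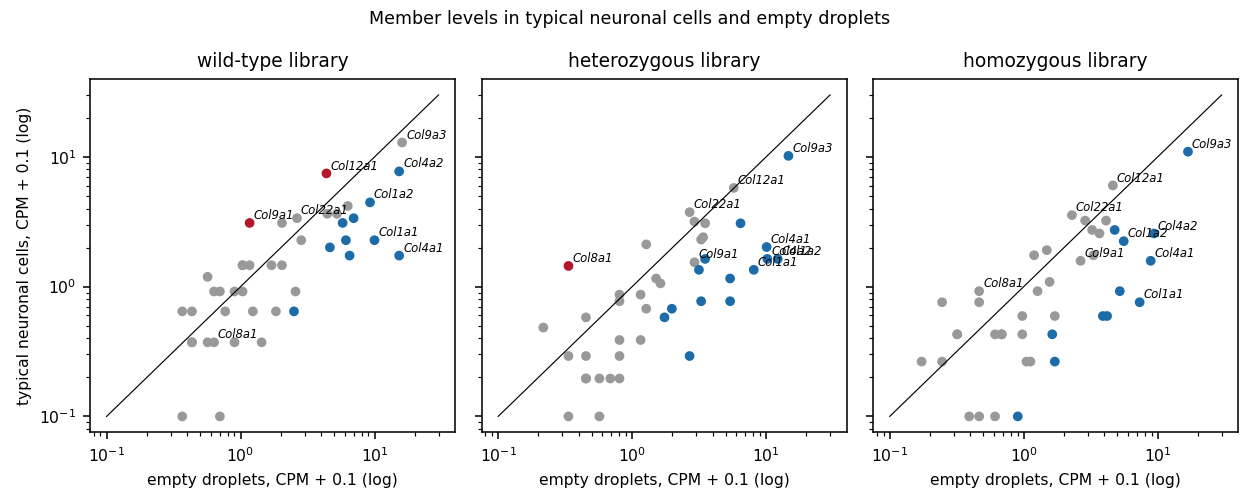
CPM + 0.1 of each member in typical neuronal cells (y axis) against empty droplets (x axis), 1 panel a library, both axes logarithmic, with the line of equal level; members whose interval of the ratio lay below empty droplets are blue, above red, and neither grey. *Col4a1*, *Col4a2*, *Col1a1* and *Col1a2* are blue and under the line in all 3 panels, and *Col12a1* and *Col22a1* lie on or just above it.

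The genes that build, hold and remodel these matrices were followed as 69 tested partner genes. In endothelial-gated cells 33 were higher (15.8% of all genes) and 9 lower (19.1% of all genes) than in cells of no gate: 11 and 1 of 15 other basement membrane genes, 11 and 2 of 24 collagen synthesis genes, 6 and 3 of 17 receptors, and 5 and 3 of 13 turnover genes. The largest were *Hspg2* (perlecan, log2 5.96), *Fn1* (fibronectin, 5.40), *Egfl7* (an endothelial matrix protein, 5.22), *Nid1* (nidogen, 5.12) and *Itga5* (the fibronectin receptor alpha chain, 5.08), while *Itgb8*, an integrin of astroglia, had no UMI there and was at least 6.85-fold lower. In mural-gated cells 32 were higher (4.91% of all genes) and 1 lower (4.81%), led by *Itga1* (a collagen receptor chain, 5.55), *Pcolce* (an enhancer of procollagen cleavage, 5.34), *Nid1* (4.90), *Itga7* (a laminin receptor chain, 4.82), *Mmp2* (a gelatinase, 4.64) and *Serpinh1* (the collagen chaperone, 4.50). In astroglial-gated cells 27 were higher (9.88% of all genes) and 10 lower (9.16%), with *Itga7* (4.21) and *Timp3* (a metalloproteinase inhibitor, 2.83) highest among those named, and *Pcolce* (-3.45) and *Mmp9* (-2.82) lower. Endothelial-gated cells were above mural-gated cells in 12 partners (7.43% of all genes), among them *Egfl7* (4.87), and below in 18 (5.10%), among them *Pcolce* (-7.41), *Mmp9* (-5.44) and *Mmp2*, which had no UMI in endothelial-gated cells and was at least 32.3-fold lower. The alternatives were run for the members and not read for the partner genes. Whether the mural partner calls hold without the cells with fibroblast UMIs was therefore not tested.

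For genotype, levels are given side by side as log2 ratios to the wild-type library with exact conditional 95% intervals (counting error only). In typical neuronal cells 5 of 17 members with 20 or more UMIs in the 2 libraries together were past 2-fold in the heterozygous library (5.34% of all genes), all lower, and 3 of 13 in the homozygous library (4.31% of all genes), all lower. Here and in outside cells, the shares of all genes cover every gene with 20 or more UMIs. They were not matched to the UMI counts of the members, so the shares are not like for like. *Col4a2* stood at 7.63, 1.54 and 2.47 CPM, log2 ratios of -2.31 (-3.30 to -1.38) and -1.63 (-2.64 to -0.67), from 28, 16 and 15 UMIs, where empty droplets of the same libraries stood at 15.2, 10.1 and 9.27 CPM. *Col1a2* stood at 4.36, 1.54 and 2.14 CPM with ratios of -1.50 (-2.60 to -0.41) and -1.03 (-2.20 to 0.12), and *Col9a1* at 2.997, 1.44 and 1.48 CPM. *Lama4* (-1.63) and *Lamb2* (-1.50) passed the size rule in the heterozygous library. With every cell thinned to 1000 UMIs, 2 and 1 members still met both the minimum of 20 UMIs and the 2-fold size, while all 5 and all 3 ratios kept their direction and stayed within their unthinned intervals. Of these levels only that of *Col9a1* in the wild-type library had an interval above the empty droplets of its library. The wild-type library also held the largest share of outside cells, and genotype and library cannot be told apart.

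In outside cells 23 of 39 members were past 2-fold in the heterozygous library (15.2% of all genes), 22 of them lower, and 2 of 39 in the homozygous library (7.72% of all genes). *Col1a1* stood at 55.9 and 17.1 CPM in the wild-type and heterozygous libraries (log2 ratio -1.71, -2.08 to -1.35) and *Col18a1* at 31.5 and 8.80 CPM (-1.84, -2.37 to -1.34). Endothelial-gated, mural-gated and astroglial-gated cells were 8.39%, 2.92% and 26.4% of outside cells in the wild-type library and 5.36%, 1.86% and 23.5% in the heterozygous library, and cells of more than 1 gate were 5.53% and 3.86%. In the homozygous library they were 10.7%, 4.15%, 18.2% and 3.64%, so the mixture differed in both mutant libraries, in opposite directions for endothelial-gated and mural-gated cells. Its part in the ratios was not tested beyond equal class weights. With each class given equal weight, 14 and 5 members were past 2-fold. With every cell thinned to 1000 UMIs, 6 and 2 met the size and the minimum of 20 UMIs. Of the 22 heterozygous ratios that could then be formed, 14 stayed within their unthinned intervals, 6 lay nearer to 0, *Col1a1* (-1.01) and *Col18a1* (-0.96) among them, and those of *Col11a2* (0.45) and *Col4a6* (0.0392) lay above 0. Among endothelial-gated cells alone, *Col18a1* had a log2 ratio of -1.35 for the heterozygous library (interval -2.31 to -0.53), and a ratio of -1.04 for the homozygous library (-1.73 to -0.41). *Lamb1* had a ratio of 1.38 (0.54 to 2.19) there in the heterozygous library. These are examples with intervals that exclude 0, out of ratios formed for 43 members in both mutant libraries. No share of all genes was computed within a class. *Col19a1* was higher in outside cells of both mutant libraries, with 2.09, 4.63 and 4.51 CPM (1.15, 0.15 to 2.15, and 1.11, -0.08 to 2.24). The median log2 ratio of the members was -1.15 in heterozygous outside cells, where that of all genes with 20 or more UMIs was -0.29, and -0.24 in homozygous outside cells, where it was -0.07.

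**Figure D5:**
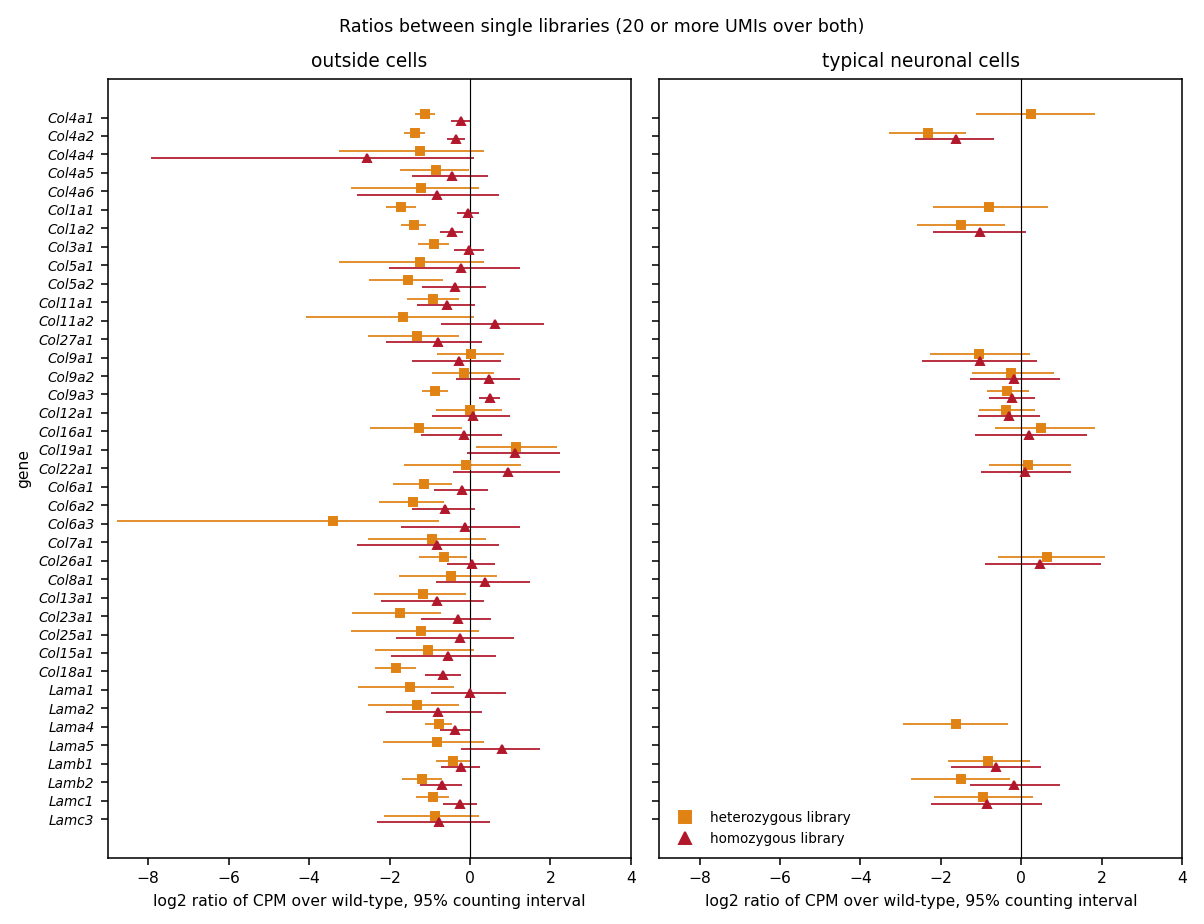
Log2 ratio of CPM over the wild-type library (x axis, bar of the exact 95% counting interval) in outside cells (left panel) and typical neuronal cells (right panel), with orange squares for the heterozygous and red triangles for the homozygous library; ratios from 20 or more UMIs in the 2 libraries together are drawn, for the 39 members that reach this in outside cells. Most heterozygous points in outside cells lie left of 0, and *Col19a1* lies right of it in both libraries.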

How the data were processed

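Single-cell RNA-seq libraries (10X Chromium, 3′ kit, version 2) of sorted cells, 1 for each of 3 genotypes, were used. Per the authors' methods, reads were aligned to mm10 and UMIs counted with Cell Ranger 2.0.1, cells were filtered on UMIs, genes and mitochondrial share, and rare genes were dropped, which left the deposited table of raw UMI counts per cell and gene. The counts of that table equalled those of the deposited matrices in every entry compared. Empty droplets are barcodes of 100 to 500 UMIs. The members, the gene lists and the gates were chosen with earlier results of these data known.

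The raw counts were summed per library and class. The libraries held 4955, 6862 and 5579 filtered cells. The class sums of 12 library and class pairs were fitted with edgeR 4.0.16 in R 4.3.3 (TMM factors, library as a block, genes with 10 or more UMIs, gate genes left out of the test), and calls needed a Benjamini-Hochberg adjusted p under 0.05. The library block pairs classes of the same library, since every class comes from the same 3 cell suspensions. Members were named when they had 30 or more UMIs (the 30 with the most) or passed a class test, and partner genes when they were among the 6 with the largest change that passed. Outside this rule the text also names *Col4a4*, *Col6a4* and *Col6a5*, and symbols without a row in the filtered table. Bounds use a floor of 3 UMIs over a class. Per class comparison 13 alternatives were run, DESeq2 1.42.0 among them, of which 12 were planned and 1, the removal of cells with fibroblast UMIs, was added after seeing the data. The steps were tested on simulated counts. Intervals are exact at 95% and cover counting error only. No doublet caller was run, and removing the 5% of cells with the most UMIs served in its place. Annotated positions are those of GENCODE (GRCm38). Bases of promoters come from RefSeq (GRCm38.p6), and no columns of the authors' own comparisons were used.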

Additional observations from a re-analysis of the deposited data

Results flagged for a closer look

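Collagen and laminin genes without a row in the filtered table still gave UMIs in empty droplets, which no comparison used, above the 3 UMIs that a count of 0 allows. *Col5a3* had 7 UMIs, *Lama3* had 5, and *Col24a1* and *Col2a1* had 4 each, over the empty droplets of all 3 libraries. Their source was not tested.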

How the results depend on the processing

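Of the members that passed a class test, 9 of 10 were higher in endothelial-gated cells, 9 of 27 in mural-gated cells and 3 of 4 in astroglial-gated cells under every alternative, and 2 of 11, 1 of 1 and 0 of 7 were lower; 4 of 19 stayed lower in endothelial-gated than mural-gated cells. Leaving out 1 library gave ranges of 9 to 10 (endothelial, higher), 4 to 8 (lower), 11 to 26 (mural, higher), 3 to 6 (astroglial, higher), 4 to 8 (lower) and 6 to 20 (endothelial against mural, lower), the lowest of each lower count and of the mural count without the wild-type library. Without the replicate block, counts were 10 and 9, 25 and 1, 3 and 6, and 0 and 18. DESeq2 gave 7 (endothelial, lower) and 4 (astroglial, lower), removing the cells with the most UMIs gave 4 and 4, and thinning to 1000 UMIs per cell gave 3 and 1, with 13 for mural higher and 5 for endothelial against mural. A gate of 2 UMIs gave 17 for mural higher, a gate of 5 UMIs 7 for astroglial higher, and cells of several gates put with their largest gate 2 for mural lower. Without cells with fibroblast UMIs, mural higher was 14 and endothelial against mural 8. The sign turned, far from passing the test, for *Col15a1* when thinned (endothelial, -0.15) and, without cells with fibroblast UMIs, for *Col5a2* (mural -0.0326, endothelial against mural 0.67) and *Col6a1* (mural -0.66). Other fits gave a turned sign where mural-gated cells had no UMI left, so these values give no direction: *Col15a1* (mural, -3.04 to 4.03 over the left-out libraries, the lowest without the wild-type library), *Col22a1* (mural, -3.67 to 3.96, the lowest without the homozygous library) and, without cells with fibroblast UMIs, *Col4a6* (mural -2.68, and endothelial against mural 0.0014 with both classes at 0). Thinning reversed the heterozygous ratios of *Col11a2* (0.45) and *Col4a6* (0.0392) in outside cells. In genotype counts, thinning gave 2 and 1 (typical neuronal, heterozygous and homozygous) and 6 (outside, heterozygous), and equal class weights 14 and 5. Thinning also lowers the number of members with 20 UMIs, and 5 of 5, 3 of 3 and 14 of 22 ratios stayed within their unthinned intervals. Shares of the members' UMIs moved to 16.2% (no gate, thinned), to 10.4%, 38.1% and 15.8% (endothelial, several gates, no gate; gate of 2), to 16.4%, 19.0%, 17.1% and 21.8% (endothelial, mural, several gates, no gate; gate of 5), to 11.6% and 14.6% (endothelial, no gate; without the cells with the most UMIs) and to 18.9% and 19.1% (endothelial, several gates; without cells with fibroblast UMIs). The cause of these shifts was not tested beyond the smaller number of cells or UMIs each alternative leaves.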

Other observations

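Cells that passed more than 1 gate numbered 256. At the gate of 3 UMIs they held the largest mean share of the members' UMIs, though typical neuronal cells held more in the heterozygous library (30.8% against 25.7%). With a gate of 5 UMIs cells of no gate held the larger mean share. Over all libraries together, each combination of gates had a higher median UMI count than cells of 1 gate. In the heterozygous library alone the median was 3138.5 UMIs in cells of more than 1 gate and 4113.5 in astroglial-gated cells. Of the 256, 85 passed the endothelial and mural gates with a median of 3729 UMIs, 119 the mural and astroglial gates with 3303, 36 the endothelial and astroglial gates with 4153.5, and 16 all 3 with 5219. Cells of the mural gate alone had a median of 2036 UMIs, cells of the endothelial gate alone 2566 and cells of the astroglial gate alone 2792. Whether several cells shared a droplet was not tested.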
